A study of Mus musculus with 36 samples.

Results

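The 9 genes described here encode the costimulatory arm of osteoclast formation that signals through ITAMs, tyrosine motifs in the tails of membrane adaptors. They are the receptors Oscar, Siglec15 and Trem2, the adaptors Tyrobp and Fcer1g, the kinases Syk, Btk and Tec, and the phospholipase Plcg2. They were picked by name from the table of 24950 genes, by a rule that uses no measured value. The list was nevertheless drawn up with earlier results of these data known. All 9 are in the table, and all 9 were among the 11863 that were tested, having reached 1 RPKM in 3 libraries or more. RPKM is the number of reads on a gene, divided by its length and by the size of the library.

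RNA-seq was done on mouse bone marrow-derived cells of strain C57BL/6 on days 0, 3 and 6 of osteoclast culture, in 36 libraries with 3 in each of 12 groups. The genotypes are labelled Irf8 gKO, gWT, cKO and cWT, and the meaning of the prefixes g and c, the deleted part of Irf8 and the driver of any deletion are not stated. Day 0 cells are labelled as macrophages (BMMs) and were given M-CSF, a macrophage growth factor. Day 3 cells are pre-osteoclasts and day 6 cells are mature osteoclasts, cultured in RANKL, the cytokine that starts osteoclast formation, at 40 ng/ml beside 20 ng/ml of M-CSF. Mice of both sexes were used, without the sex of a library being given, and whether replicate libraries stem from different animals or cultures is not stated. The p-values therefore measure only the spread between these samples.

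In osteoclast precursors RANKL provides one signal and ITAM adaptors provide a second one. Receptors such as OSCAR engage the Fc receptor gamma chain (encoded by Fcer1g), while TREM2 and SIGLEC-15 engage DAP12 (encoded by Tyrobp). SRC family kinases phosphorylate the ITAMs, SYK docks on them, and BTK and TEC help to activate PLCγ2, whose product releases calcium and so switches on NFATc1, the main transcription factor of osteoclast formation.

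The libraries split by data set, and Irf8 RPKM was not lower in the knockout labels on every day. Column names carry the letters s, t and u, read here as the 3 data sets that the file header says were combined. All libraries labelled gKO and gWT are u, with 34510144 to 59268081 alignments. Those labelled cKO are t at days 0 and 3 and s at day 6, while those labelled cWT are s at days 0 and 3 and, at day 6, 2 t and 1 s (replicate 3). At days 0 and 3 of the c set, data set and genotype therefore cannot be told apart except through the day 6 cWT libraries, which let a fit with data set as a term be made. That term rests on 2 t libraries against 1 s library of cWT. For cKO against cWT at day 6 it repeats the estimate of data set s alone (0.85 for Oscar in both), so these are not separate checks. Irf8 averaged 57.4, 13.4 and 4.97 RPKM on days 0, 3 and 6 in libraries labelled gKO, against 63.6, 5.46 and 5.58 RPKM in those labelled gWT. It averaged 210.0, 65.4 and 11.2 RPKM in libraries labelled cKO, against 59.0, 6.42 and 26.3 RPKM in those labelled cWT. Irf8 was thus higher in the knockout label at day 3 in both sets and at day 0 in the c set. In the c set it was lower in the knockout label at day 6. Sums of the 10 neutrophil markers given below were likewise higher in cKO than in cWT at days 0 and 3 and lower at day 6. The file header mentions corrected annotations for cKO and cWT at day 6. Every c set result that uses day 6 rests on those corrected labels, which were not tested. As the deleted part is not stated, RPKM of the whole gene cannot check a knockout, and every genotype below is a label. The osteoclast labels were checked against markers: 10 genes including Ctsk and Acp5 summed to 224 to 354 RPKM in day 0 libraries and to 16570 to 28010 RPKM in day 6 libraries.

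Oscar, a collagen-binding receptor of osteoclasts, and Siglec15, a receptor for sialylated glycans needed for full osteoclast maturation, were near absent before RANKL and abundant after it. Both were higher at day 3 in libraries labelled knockout: Oscar was then 7.28-fold higher in gKO over gWT and 4.53-fold higher in cKO over cWT by mean RPKM. By day 6 the test called no difference for Oscar in the g set. Trem2, a lipid-sensing receptor of macrophages, went the other way, with its highest mean in day 0 libraries labelled gWT.

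**Figure D1:**
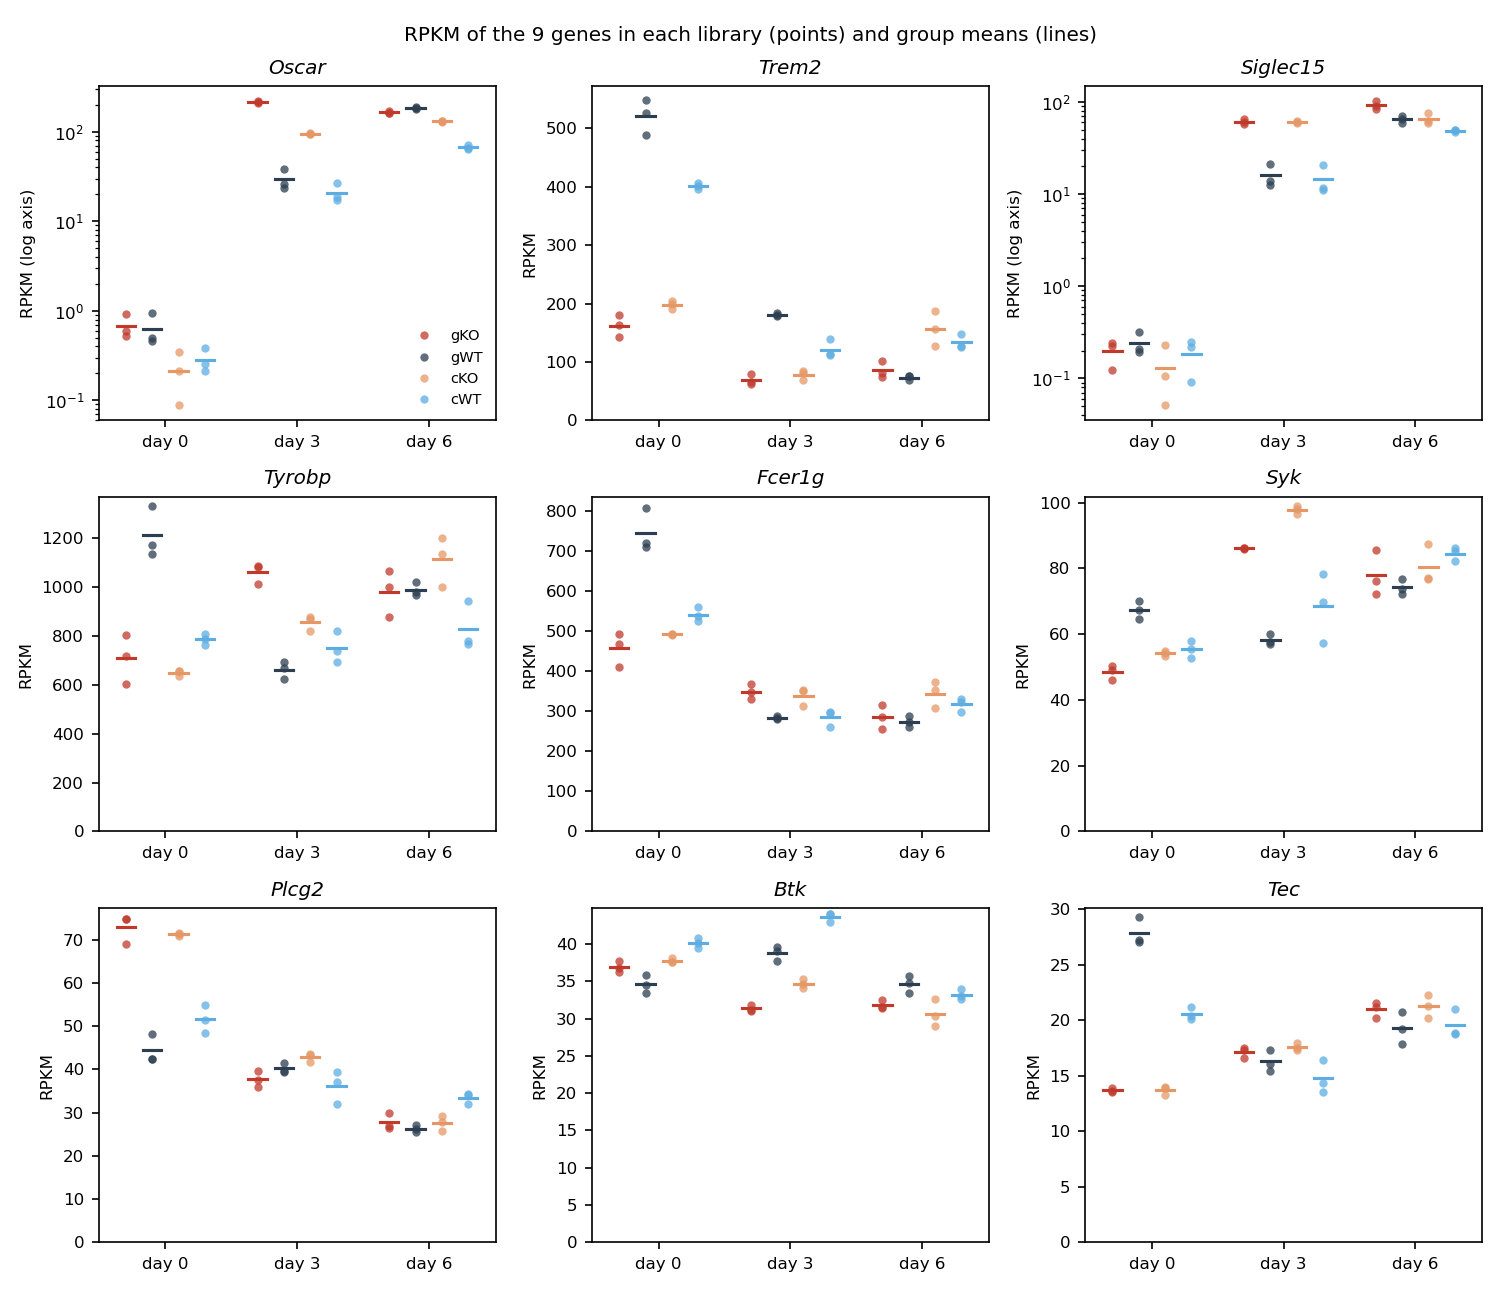
RPKM of each gene (y axis; a log axis for Oscar and Siglec15) in every library, by day and by labelled genotype, with points for libraries and lines for means of 3. Oscar and Siglec15 lie under 1 RPKM in all day 0 libraries and above 10 RPKM in all later ones, while Btk stays between 28.9 and 44.1 RPKM.

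The promoter windows of Oscar and Trem2 are shown because from day 0 to day 3 Oscar rose and Trem2 fell in each label. Each line gives the 250 bases before the transcription start, 5′ to 3′ on the gene's strand, from RefSeq on build GRCm38.p6 (the files use mm9). Oscar's window is chr7:3616158-3616407 (minus strand) and Trem2's is chr17:48346151-48346400 (plus strand). Capitals mark matches, on either strand, to TGGAAA (the NFAT core), CATGTG (an E-box of the MITF type) or TGANTCA. The last is a loose form of the AP-1 element, in which N is any base.
Oscar: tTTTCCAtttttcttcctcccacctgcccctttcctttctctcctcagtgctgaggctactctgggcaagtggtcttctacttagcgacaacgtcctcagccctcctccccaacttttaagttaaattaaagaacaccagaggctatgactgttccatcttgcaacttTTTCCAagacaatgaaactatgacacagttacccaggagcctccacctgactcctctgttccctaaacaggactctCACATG
Trem2: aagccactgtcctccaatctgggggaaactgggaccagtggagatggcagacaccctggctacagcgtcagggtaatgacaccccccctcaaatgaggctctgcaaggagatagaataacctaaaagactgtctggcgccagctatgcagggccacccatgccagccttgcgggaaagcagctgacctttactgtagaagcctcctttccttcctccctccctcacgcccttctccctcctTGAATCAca

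In Oscar's window TGGAAA is read on the opposite strand at 249 and 82 bases before the start, and CATGTG on the opposite strand at 6 bases before it. Trem2's window holds TGAATCA, with A as the free middle base, on its own strand at 9 bases before the start. Of 32851 mouse windows of this length, 18.6% hold TGGAAA, 12.3% hold CATGTG and 6.75% hold TGANTCA. The interferon-stimulated response element (GAAA, 2 bases of any kind, GAAA; 2.98% of windows) and the PU.1-IRF composite element (GGAA, 2 bases of any kind, GAAA; 2.3%), IRF8's textbook sites, which can overlap each other, had no match in the 8 windows found for 7 of the 9 genes. Siglec15 and Tyrobp have no entry in the promoter table. A match is a run of letters and was not tested for binding.

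Oscar reached 215, 211 and 219.8 RPKM in day 3 libraries labelled gKO, against 23.8, 26.4 and 38.4 RPKM in those labelled gWT. The groups did not overlap, and the lowest gKO library stood above every day 6 library of the g set. On the log2(RPKM + 1) scale the difference was 2.85 ± 0.13 (SE), the 39th highest change of 11863 genes (limma, adjusted p = 6.135e-18). In the c set Oscar had 97.1, 93.3 and 94.4 RPKM in day 3 libraries labelled cKO, against 17.3, 26.7 and 18.9 RPKM in those labelled cWT. That difference, 2.15 ± 0.13 (limma, adjusted p = 9.62e-15), was 2.29 with data set as a term.

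On day 0 Oscar was under 1 RPKM in all 12 libraries, with 0.597, 0.926 and 0.53 RPKM in gKO and 0.498, 0.941 and 0.463 RPKM in gWT. The day 0 groups overlapped in both sets and no difference was called. On day 6 Oscar had 164, 171 and 161 RPKM in libraries labelled gKO, against 178, 186 and 188 RPKM in those labelled gWT. These libraries did not overlap, yet the difference of -0.16 ± 0.13 was not called (limma, adjusted p = 0.34; 0.039 when the spread was estimated from these groups only). Day 6 Oscar in the c set had 129, 133 and 131 RPKM in libraries labelled cKO, against 64.6, 66.4 and 72.0 RPKM in those labelled cWT. The rise of 0.94 ± 0.13 (limma, adjusted p = 8.071e-07) was 0.85 within data set s, where cWT has 1 library. Whether the sets differ at day 6 was not tested. Beside it, the summed osteoclast markers were 26160 to 26750 RPKM in cKO and 16570 to 18710 RPKM in cWT, and the summed neutrophil markers were 153 to 209 RPKM in cKO and 721 to 937 RPKM in cWT; their part was not tested.

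Siglec15 had 60.4, 57.3 and 64.8 RPKM in day 3 libraries labelled gKO, against 13.8, 12.7 and 21.3 RPKM in those labelled gWT. It was higher in every gKO library, by 1.90 ± 0.15 on the log2(RPKM + 1) scale (limma, adjusted p = 1.952e-12). It had 62.2, 60.0 and 58.9 RPKM in day 3 libraries labelled cKO, against 11.2, 20.9 and 11.8 RPKM in those labelled cWT, a rise of 2.03 ± 0.15 (limma, adjusted p = 8.18e-13), or 2.07 with data set as a term. Within each wild-type label the library with the most Oscar at day 3 (replicate 3 of gWT, replicate 2 of cWT) also had the most Siglec15. By day 6 Siglec15 was still higher, with 91.5, 84.8 and 101.9 RPKM in gKO against 65.3, 69.6 and 58.8 RPKM in gWT. The rise of 0.51 ± 0.15 (limma, adjusted p = 0.00556) lost its call with a pseudocount of 0.1 (adjusted p = 0.0797), as did the day 6 rise of 0.42 ± 0.15 in the c set (limma, adjusted p = 0.0201 and 0.146). The c set rise was also not called with data set as a term (0.39, limma, adjusted p = 0.168). Nor was it called without replicate 1 of cKO (0.32, adjusted p = 0.105) or without replicate 1 of cWT (0.40, adjusted p = 0.057).

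At day 3 the osteoclast and neutrophil markers, like these receptors, were higher in libraries labelled knockout. Within each label the neutrophil markers fell from day 0 to day 3, a change over time that does not measure the difference between labels at day 3. Their median log2 change was -2.32 in gKO, -2.70 in gWT, -2.92 in cKO and -2.64 in cWT. At day 3 all 10 osteoclast markers were called higher in gKO over gWT, beside 32.6% of all genes. Their sums were 23610 to 24720 RPKM in libraries labelled gKO and 3977 to 5902 RPKM in those labelled gWT. The sums were 17950 to 18230 RPKM for cKO and 5811 to 7222 RPKM for cWT. The 10 neutrophil markers, S100a8 and Elane among them, summed to 5477 to 6711 RPKM in gKO and 308 to 732 RPKM in gWT at day 3, and to 4859 to 5630 RPKM in cKO and 779 to 1001 RPKM in cWT. Their part in the receptor results was not tested. In bulk RNA, more osteoclast-lineage cells and more RNA of a gene per cell cannot be told apart.

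The early step itself differed between labels. From day 0 to day 3, Oscar rose by 7.01 in gKO and 4.21 in gWT on the log2(RPKM + 1) scale, and by 6.31 in cKO and 4.07 in cWT. The difference between the steps was 2.80 ± 0.18 for gKO against gWT (limma, adjusted p = 2.032e-14) and 2.23 ± 0.18 for cKO against cWT (adjusted p = 9.107e-12). Siglec15 rose by 5.69 in gKO and 3.74 in gWT, and by 5.77 in cKO and 3.67 in cWT, with differences of 1.95 ± 0.21 and 2.097 ± 0.21 (limma, adjusted p = 1.578e-09 and 6.977e-10). A start near 0 makes these steps depend on the pseudocount: with 0.1 in place of 1, Siglec15 rose by 7.71 in gKO and 5.54 in gWT. The difference between gKO and gWT moved less, to 2.77 for Oscar.

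In the late step the difference between gKO and gWT had the opposite sign. From day 3 to day 6 Oscar rose by 2.63 ± 0.13 in gWT (limma, adjusted p = 4.526e-17), while in gKO it fell by 0.38 (adjusted p = 0.0141, or 0.171 with a pseudocount of 0.1). The difference between these steps was -3.01 ± 0.18 (limma, adjusted p = 9.505e-15). Siglec15 rose in both, by 0.60 in gKO and 1.98 in gWT, with a difference of -1.39 ± 0.21 (limma, adjusted p = 1.216e-06). For the c set, Oscar rose by 0.46 in cKO and by 1.67 in cWT. The cKO rise crosses from data set t to s and was not called with data set as a term (0.33, limma, adjusted p = 0.364). The cWT rise was 1.76 within data set s, where cWT has 1 library at day 6.

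**Figure D2:**
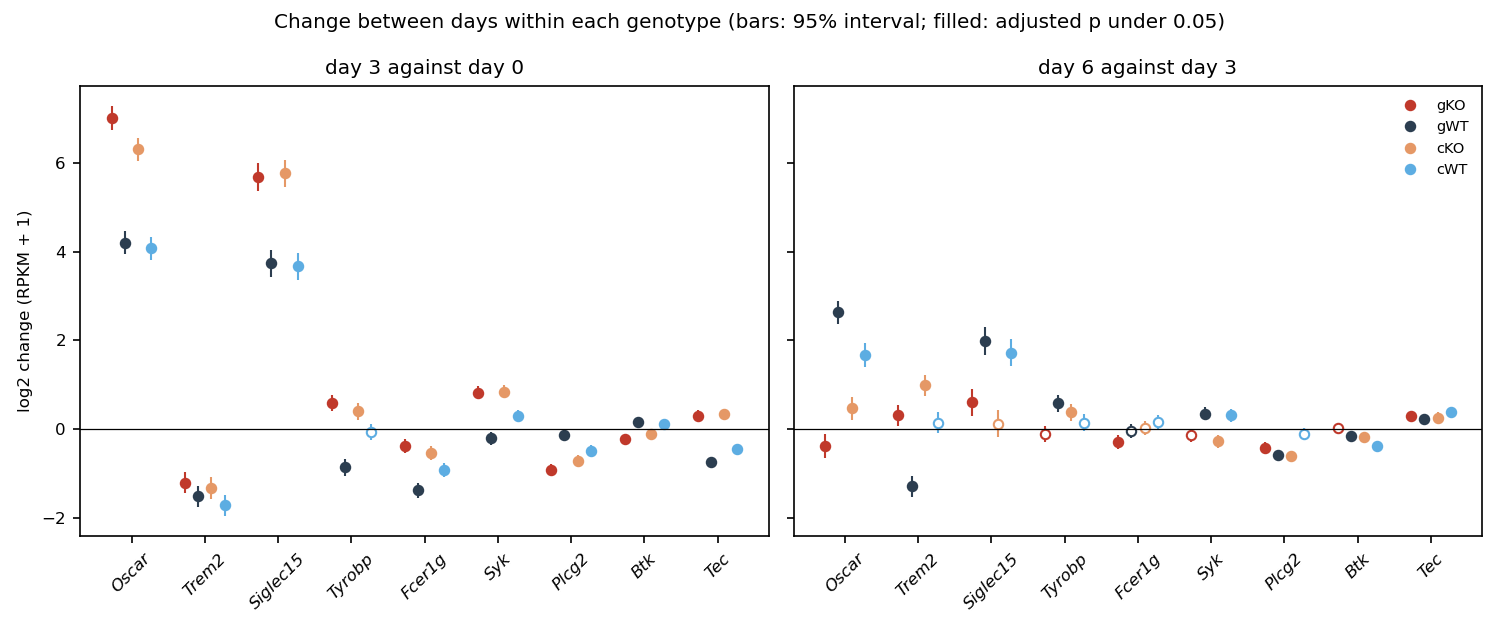
Change in log2(RPKM + 1) of each gene from day 0 to day 3 (left) and from day 3 to day 6 (right) in each labelled genotype, with 95% intervals (limma; filled points have an adjusted p under 0.05). Oscar and Siglec15 rose by 5.69 to 7.01 in knockout-labelled cells and by 3.67 to 4.21 in wild-type-labelled cells in the first step.

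Ordered by mean RPKM, Oscar was highest in gKO at day 3 (215), followed by gWT at day 6 (184), gKO at day 6 (165), cKO at day 6 (131), cKO at day 3 (94.96) and cWT at day 6 (67.7). No neighbours among these overlapped, and the order then passed to gWT and cWT at day 3, which did. For Siglec15 the top was gKO at day 6 (92.7 RPKM), apart from all others, while cKO and gWT at day 6 and gKO and cKO at day 3 overlapped their neighbours at means of 60.4 to 65.9 RPKM. In both orders the g set is data set u and the c set is s or t, so level differences between the sets cannot be told apart from data set. Across the 12 group means of log2(RPKM + 1) Oscar and Siglec15 correlated with r = 0.993. The groups share days and data sets, and both genes were measured in the same libraries, so this is a description.

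The genes most like Oscar over those 12 means were Ppm1j (r = 0.996), Twsg1 (0.994) and Edil3 (0.994). Those most like Siglec15 were Spns2 (r = 0.996), Twsg1 (0.995) and Ctsk (0.994). Ppm1j averaged 0.348, 15.5 and 14.6 RPKM on days 0, 3 and 6 in gKO and 0.536, 4.72 and 13.8 RPKM in gWT.

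Trem2 was high in day 0 libraries and lower in those labelled knockout. On day 0 it had 143, 179.7 and 163 RPKM in libraries labelled gKO, against 489, 548 and 525 RPKM in those labelled gWT. The lowest gWT library was above every gKO library, and the difference was -1.68 ± 0.12 (limma, adjusted p = 7.768e-14). Likewise Trem2 had 199.8, 190.2 and 204 RPKM in libraries labelled cKO, against 407, 397 and 401 RPKM in those labelled cWT, a fall of 1.02 (limma, adjusted p = 9.705e-09). At day 3 it was again lower, with 65.6, 78.7 and 62.8 RPKM in gKO against 178, 184 and 181 RPKM in gWT, a difference of -1.38 ± 0.12 (limma, adjusted p = 7.9e-12). The day 3 fall in the c set, 0.63 by size (78.1 RPKM on average in cKO, 121 RPKM in cWT; limma, adjusted p = 2.178e-05), was not called with data set as a term (-0.40, adjusted p = 0.105).

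By day 6 the Trem2 groups overlapped, with 81.9, 101.7 and 74.6 RPKM in gKO and 68.8, 75.2 and 76.0 RPKM in gWT. The difference of 0.22 ± 0.12 was not called (limma, adjusted p = 0.124), nor was that of 0.22 ± 0.12 in the c set (adjusted p = 0.119). Single libraries decide this: it was called at 0.31 without replicate 3 of gKO (adjusted p = 0.0434) and at 0.36 without replicate 2 of cKO (adjusted p = 0.0129), and quantile scaling also called the g set (0.24, adjusted p = 0.0369). Trem2 fell from day 0 to day 3 in all 4 labels, by 1.22 in gKO, 1.52 in gWT, 1.34 in cKO and 1.73 in cWT. Between gKO and gWT these falls differed by 0.30 ± 0.17, which was not called (limma, adjusted p = 0.0951), although quantile scaling put it past the threshold (0.31, adjusted p = 0.04). The late step did differ: from day 3 to day 6 Trem2 fell by a further 1.29 in gWT and rose by 0.31 in gKO, a difference of 1.60 ± 0.17 (limma, adjusted p = 7.653e-10). The gKO rise alone rests on single libraries, at 0.18 (adjusted p = 0.208) without replicate 2 of day 6. It was 0.24 (adjusted p = 0.114) without replicate 3 of day 3 and 0.28 (adjusted p = 0.0814) without replicate 1. For the c set, Trem2 rose by 0.98 in cKO from day 3 to day 6, as Oscar did, or by 0.76 with data set as a term. In cWT the late change of Trem2 was 0.14, or 0.39 after quantile scaling.

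Macrophage markers moved in the same direction as Trem2 on day 0. Their 10 genes, Csf1r and C1qa among them, summed to 7391 to 8367 RPKM in gKO and 20060 to 22260 RPKM in gWT. Of the 10, 9 were called lower, beside 29.8% of all genes. In the c set the sums were 5917 to 6058 RPKM in cKO and 10350 to 10730 RPKM in cWT. Neutrophil markers went the other way, at 21160 to 26690 RPKM in gKO against 2020 to 2647 RPKM in gWT, and 21720 to 23090 RPKM in cKO against 3449 to 3550 RPKM in cWT. Their part in the day 0 results was not tested. At day 3 the macrophage sums were 6495 to 7878 RPKM in gKO and 5522 to 5845 RPKM in gWT. Of the 10, 5 were called higher and 4 lower, beside 32.6% higher and 46.5% lower over all genes. The genes most like Trem2 over the 12 group means were P2ry6 (r = 0.979), Tmem106a (0.968) and Rom1 (0.962). P2ry6 averaged 31.5, 13.6 and 14.2 RPKM on days 0, 3 and 6 in gKO and 99.3, 41.6 and 15.6 RPKM in gWT.

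The adaptors were abundant at every stage, and Tyrobp changed its order between labels with time. Tyrobp (DAP12) had 604, 802 and 719 RPKM in day 0 libraries labelled gKO, against 1135, 1331 and 1173 RPKM in those labelled gWT. It was lower in every gKO library, by 0.78 on the log2(RPKM + 1) scale (95% interval -0.97 to -0.59; limma, adjusted p = 6.778e-09). On day 3 the order was turned round, with 1084, 1081 and 1012 RPKM in gKO against 623, 669 and 693 RPKM in gWT, a rise of 0.68 ± 0.09 (limma, adjusted p = 1.04e-07). On day 6 the means were 980.4 ± 96.4 RPKM in gKO and 988 ± 28.7 RPKM in gWT (SD, n = 3 each), with overlapping libraries. From day 0 to day 3 Tyrobp thus rose by 0.59 in gKO and fell by 0.87 in gWT. The difference of 1.46 ± 0.13 was called (limma, adjusted p = 1.88e-11).

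In the c set Tyrobp depended on the scaling. On day 0 it had 637, 656 and 655 RPKM in cKO against 761, 808 and 786 RPKM in cWT, a fall of 0.27 (limma, adjusted p = 0.01) that was not called after quantile scaling (-0.08, adjusted p = 0.0991) and was 0.010, uncalled, with data set as a term. On day 3 it had 869.9, 876 and 818 RPKM in cKO against 818, 694 and 738 RPKM in cWT, and the difference of 0.19 ± 0.09 was not called (limma, adjusted p = 0.0593). It was called at 0.79 after quantile scaling (adjusted p = 1.075e-15), at 0.47 with data set as a term (adjusted p = 0.0104) and at 0.26 without replicate 1 of cWT (adjusted p = 0.0237). The day 6 rise of 0.43 ± 0.09 (limma, adjusted p = 0.000313) was not called with data set as a term (0.24, adjusted p = 0.133). Between cKO and cWT the change from day 0 to day 3 differed by 0.46 ± 0.13 (limma, adjusted p = 0.00213).

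Fcer1g, the gamma chain of Fc receptors, fell with differentiation. It had 411, 495 and 467 RPKM in day 0 libraries labelled gKO, against 711, 808 and 720.1 RPKM in those labelled gWT, a fall of 0.71 (limma, adjusted p = 3.086e-09). On day 3 it had 349.5, 368 and 330.0 RPKM in gKO against 280.0, 289 and 283 RPKM in gWT, a rise of 0.30 ± 0.08 (limma, adjusted p = 0.00133). In the c set the day 3 rise was 0.25 ± 0.08, with 339 ± 22.7 RPKM in cKO and 286 ± 21.1 RPKM in cWT (SD, n = 3 each; limma, adjusted p = 0.00627, or 0.0524 without replicate 2 of cWT). From day 0 to day 3 it fell by 0.39 in gKO and 1.39 in gWT, and by 0.54 in cKO and 0.92 in cWT. These falls differed between gKO and gWT by 1.002 ± 0.11 (limma, adjusted p = 2.683e-09) and between cKO and cWT by 0.38 ± 0.11 (adjusted p = 0.0032). The day 0 difference in the c set and both day 6 differences were not called. Yet the day 0 libraries of the c set did not overlap, at 491 to 495 RPKM in cKO and 527 to 561 RPKM in cWT. Their difference of -0.14 was called when the spread was estimated from these groups only (limma, adjusted p = 0.00257). After quantile scaling it was 0.02 and not called.

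The balance of the adaptors changed with time. Within a library, Tyrobp RPKM over Fcer1g RPKM was 1.54 ± 0.08, 3.03 ± 0.09 and 3.43 ± 0.07 on days 0, 3 and 6 in gKO, and 1.62 ± 0.02, 2.33 ± 0.11 and 3.61 ± 0.13 in gWT (SD, n = 3 each). Day 3 libraries did not overlap between the labels, at 2.94 to 3.10 in gKO and 2.23 to 2.45 in gWT, but 3 against 3 cannot give an exact permutation p under 0.1. The c set ratios were 1.32, 2.52 and 3.23 in cKO and 1.45, 2.63 and 2.60 in cWT. The day 3 values overlapped there. From day 3 to day 6 the cKO ratio crosses from data set t to s, and the day 6 cWT libraries come from both. Tyrobp itself rose by 0.38 in that cKO step, or by 0.09, uncalled, with data set as a term. Set against its own adaptor, Oscar over Fcer1g was 0.62 ± 0.05 in gKO and 0.10 ± 0.03 in gWT at day 3. Trem2 over Tyrobp was 0.07 ± 0.01 in gKO and 0.27 ± 0.01 in gWT on that day.

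**Figure D3:**
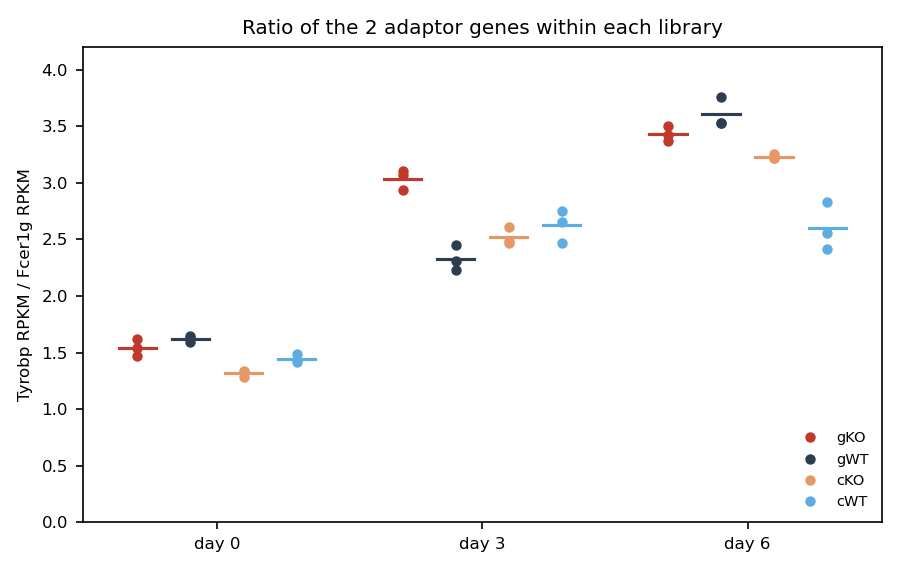
Ratio of Tyrobp RPKM to Fcer1g RPKM in each library (points) with means of 3 (lines), by day and labelled genotype. At day 3 the gKO libraries lie at 2.94 to 3.10 and the gWT libraries at 2.23 to 2.45.

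Syk, the kinase that docks on phosphorylated ITAMs, was lower at day 0 and higher at day 3 in gKO, as Tyrobp was. On day 0 it had 50.2, 46.1 and 49.1 RPKM in gKO against 70.2, 64.5 and 67.5 RPKM in gWT, a fall of 0.47 (limma, adjusted p = 6.464e-07). No day 0 difference was called in the c set, with 54.2 ± 0.8 RPKM in cKO and 55.4 ± 2.6 RPKM in cWT (SD, n = 3 each; -0.03 ± 0.07, limma, adjusted p = 0.722). On day 3 it had 86.3, 86.0 and 86.2 RPKM in gKO against 60.0, 57.6 and 57.0 RPKM in gWT, a rise of 0.56 ± 0.07 (limma, adjusted p = 2.886e-08). The c set gave a day 3 rise of 0.52 ± 0.07, with 99.1, 98.1 and 96.5 RPKM in cKO against 57.5, 78.3 and 69.7 RPKM in cWT (limma, adjusted p = 1.343e-07). Knockout-labelled libraries were higher throughout on that day. On day 6 no difference was called, with 78.1 ± 6.7 RPKM in gKO and 74.3 ± 2.3 RPKM in gWT (SD, n = 3 each). The early step differed between gKO and gWT by 1.03 ± 0.10 (limma, adjusted p = 1.273e-10) and between cKO and cWT by 0.55 ± 0.10 (adjusted p = 1.522e-05).

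The Tec family kinases did not share a course. Tec had 13.6, 13.9 and 13.7 RPKM in day 0 libraries labelled gKO, against 27.3, 27.1 and 29.3 RPKM in those labelled gWT, a fall of 0.97 (limma, adjusted p = 1.179e-15). For the c set the values were 13.9, 13.3 and 13.97 RPKM in cKO against 21.2, 20.2 and 20.4 RPKM in cWT, a fall of 0.55 (limma, adjusted p = 8.727e-10). Every knockout-labelled library lay below every wild-type-labelled one on that day. On day 3 the g set averaged 17.1 ± 0.5 RPKM in gKO and 16.3 ± 0.9 RPKM in gWT (SD, n = 3 each), a difference of 0.07 ± 0.06 that was not called (limma, adjusted p = 0.272) but was called at 0.29 after quantile scaling (adjusted p = 4.191e-05). The c set was called at day 3, with 17.3, 17.99 and 17.5 RPKM in cKO against 16.4, 14.4 and 13.6 RPKM in cWT, a rise of 0.24 ± 0.06 (limma, adjusted p = 0.00033) that was 0.39 with data set as a term. Tec rose from day 0 to day 3 by 0.30 in gKO and 0.34 in cKO, and fell by 0.74 in gWT and 0.46 in cWT. The differences of 1.04 ± 0.08 and 0.80 ± 0.08 were called (limma, adjusted p = 7.251e-13 and 5.05e-10).

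Btk was the flattest of the 9, with group means from 30.6 to 43.6 RPKM. On day 3 it had 31.2, 31.1 and 31.8 RPKM in gKO against 39.6, 37.7 and 39.0 RPKM in gWT, a fall of 0.30 (limma, adjusted p = 1.705e-08). The c set gave 34.6, 35.2 and 34.1 RPKM in cKO against 44.0, 42.9 and 44.1 RPKM in cWT, a fall of 0.32 (limma, adjusted p = 4.197e-09). Scaling moved these small changes: after quantile scaling they were -0.11 and -0.13. The change from day 0 to day 3 differed between gKO and gWT by -0.39 ± 0.05 (limma, adjusted p = 6.548e-08), or by -0.12, still called, after quantile scaling. The Btk differences of 0.09 to 0.12 by size on days 0 and 6 each lost their call under at least 1 other setting.

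Plcg2, which makes the messenger that releases calcium, was higher in day 0 libraries of both knockout labels. On day 0 it had 74.8, 69.0 and 74.9 RPKM in gKO against 48.3, 42.5 and 42.4 RPKM in gWT, a rise of 0.70 ± 0.06 (limma, adjusted p = 2.761e-11). The c set gave 70.9, 71.6 and 71.4 RPKM in cKO against 48.5, 51.5 and 55.0 RPKM in cWT, a rise of 0.46 ± 0.06 (limma, adjusted p = 2.604e-07). Neither set overlapped. The neutrophil and macrophage marker sums given above also differed between the labels on day 0, and their part was not tested. On day 3 Plcg2 averaged 37.8 ± 1.9 RPKM in gKO and 40.2 ± 1.0 RPKM in gWT (SD, n = 3 each). The difference of -0.09 ± 0.06 was not called (limma, adjusted p = 0.194) and was 0.09 after quantile scaling. The day 3 rise of 0.24 ± 0.06 in the c set (limma, adjusted p = 0.00105) was not called with data set as a term (0.15, adjusted p = 0.264).

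Plcg2 fell from day 0 to day 3 by 0.93 in gKO and by 0.14 in gWT, and the steps differed by -0.79 ± 0.09 (limma, adjusted p = 2.969e-09). The gWT fall was at the threshold (limma, adjusted p = 0.0479). It was not called with replicate number as a block (adjusted p = 0.0573), and it was 0.08 by size (adjusted p = 0.298) without replicate 1 of gWT day 0. On day 6 Plcg2 averaged 27.8, 26.3, 27.6 and 33.5 RPKM in gKO, gWT, cKO and cWT. The fall of 0.27 in cKO against cWT (limma, adjusted p = 0.000714) was not called with data set as a term (-0.21, adjusted p = 0.0675).

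For the other members the gene most like each over the 12 group means was Lpin1 for Tyrobp (r = 0.917), Arid4b for Fcer1g (0.976), Gpr162 for Syk (0.950), Grn for Tec (0.968), Rpl3 for Btk (0.961) and Zfp445 for Plcg2 (0.991). Grn averaged 394, 652 and 824 RPKM on days 0, 3 and 6 in gKO and 1165, 458 and 690.1 RPKM in gWT.

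**Figure D4:**
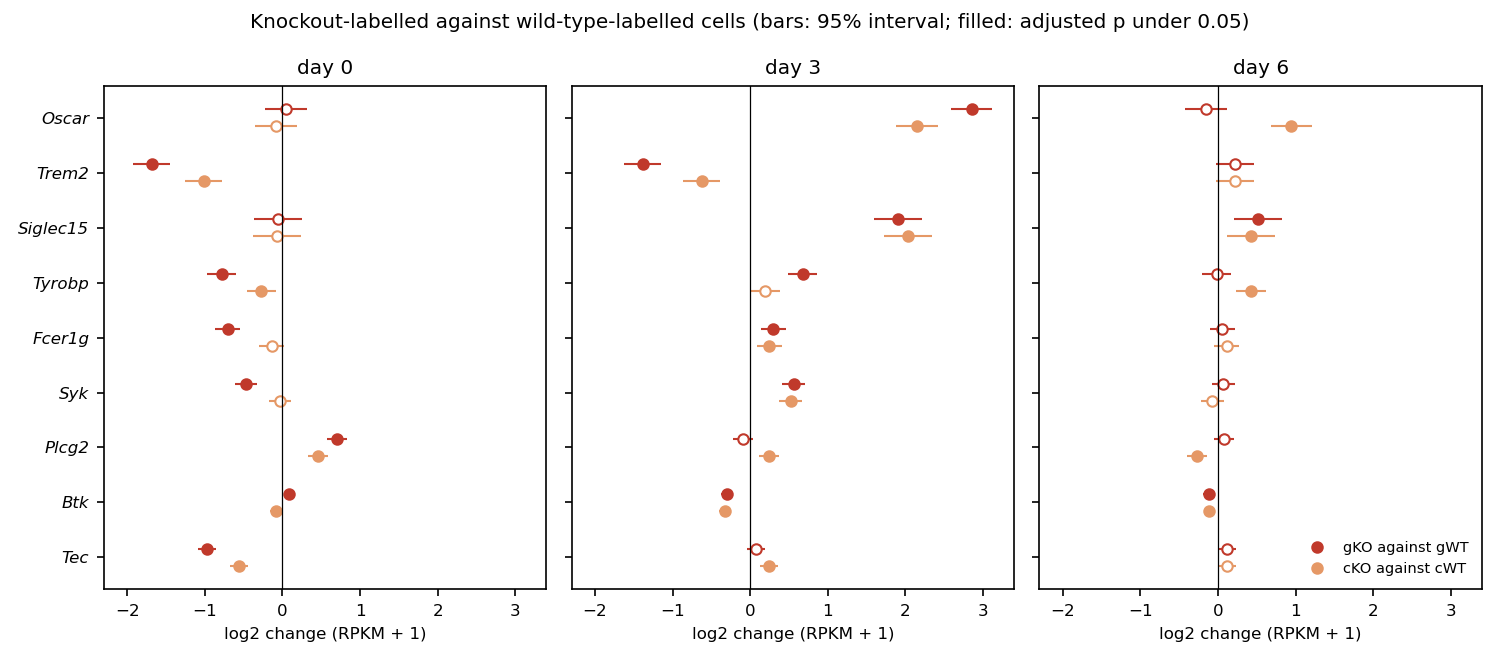
Change in log2(RPKM + 1) of each gene on days 0, 3 and 6 between the knockout and wild-type labels of the g set (red) and the c set (orange), with 95% intervals (limma; filled points have an adjusted p under 0.05). At day 3 Oscar and Siglec15 lie at 1.90 to 2.85 and Trem2 at -1.38 and -0.63.

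Most genes of the table passed the test in most comparisons, so counts of called genes say little about these 9. In gKO against gWT, 7 of 9 were called on day 0 (78.8% of all genes tested), 7 on day 3 (79.1%) and 2 on day 6 (50%). In cKO against cWT, 5 were called on day 0 (68%), 8 on day 3 (77%) and 5 on day 6 (53.6%). For the first step, 9 were called in gKO (82.5%), 9 in gWT (83.4%), 9 in cKO (80.5%) and 8 in cWT (78.7%). For the late step, 6 were called in gKO (59.3%), 8 in gWT (75.6%), 7 in cKO (57.1%) and 5 in cWT (71.2%). Differences between steps were called for 8 (81.8%) in the early step of the g set, 6 (74.8%) in its late step and 9 (72.9%) in the early step of the c set. The members' shares lie on both sides of the background and are no result about these genes.

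At day 3, Oscar and Siglec15 were the 2 of 9 that were called and at least 2-fold higher on the RPKM + 1 scale, where 6.78% of all genes were in gKO against gWT and 5.15% in cKO against cWT. The median change of the 9 genes in gKO against gWT was -0.47 on day 0 and 0.30 on day 3, beside 0.16 and -0.11 over all genes. Quantile scaling brought the all-gene medians to 0.03 and -0.01, so small changes are best read against them. It moved the all-gene median by more than 0.1 also for day 3 against day 0 in gKO (-0.23, then -0.10) and gWT (0.13, then 0.02), for day 6 against day 3 in gWT (-0.14, then 0.01) and for cKO against cWT at day 6 (-0.11, then 0.01). The widest move was that of the early difference between gKO and gWT (-0.22, then 0.03). In cKO against cWT the medians of the 9 were -0.09 on day 0 and 0.24 on day 3, beside 0.03 and -0.07 over all genes. The gKO and gWT comparisons on the 3 days share no library, but each library also enters the steps between days.

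A list of other activating receptors had more calls upward than downward on day 3. It also holds Hcst, which encodes the adaptor DAP10 without an ITAM, and Clec7a, a receptor with an ITAM-like motif of its own. Of 23 tested, 15 were called higher, 3 lower and 5 not called in gKO against gWT, with a median of 0.86 beside -0.11 over all genes. Of all genes, 32.6% were called higher and 46.5% lower. In cKO against cWT 18 were higher, 1 lower and 4 not called (median 0.74 beside -0.07), where 32.8% of all genes were called higher and 44.2% lower. Trem3, a myeloid receptor of the TREM cluster, averaged 19.8 ± 2.0 RPKM in gKO and 1.42 ± 0.26 RPKM in gWT (SD, n = 3 each), a rise of 3.10 ± 0.09 (limma, adjusted p = 1.785e-22). Clec4e (Mincle, a receptor for mycobacterial glycolipid) rose by 1.96 ± 0.10 in gKO against gWT and by 1.90 ± 0.10 in cKO against cWT (limma, adjusted p = 1.148e-16 and 6.741e-16). On day 0 the same list was split, with 11 higher, 10 lower and 2 not called in gKO against gWT (49% and 29.8% of all genes were higher and lower). Clec5a, which also couples to DAP12, averaged 78.1 RPKM in gKO and 7.68 RPKM in gWT, while Fcgr1, the high-affinity IgG receptor, averaged 4.30 RPKM in gKO and 111 RPKM in gWT. The neutrophil marker sums given above moved with Trem3 and Clec5a, and their part was not tested. Close relatives in the PIR, CLEC4 and Fc receptor families may share reads, and how the authors treated such reads is not given in the sources used here.

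From day 0 to day 3, Src, a kinase that phosphorylates ITAMs and is needed for bone resorption, rose by 6.01 ± 0.06 in gKO and 4.47 ± 0.06 in gWT (limma, adjusted p = 1.44e-33 and 2.016e-30). The scaffold gene Lat rose by 4.03 ± 0.10 in gKO and 2.34 ± 0.10 in gWT (adjusted p = 1.589e-24 and 6.739e-19). Fcgr3, a low-affinity IgG receptor that needs the gamma chain, fell by 1.93 in gKO and 4.43 in gWT (limma, adjusted p = 2.604e-16 and 7.42e-25). From day 3 to day 6 Fcgr3 rose by 0.91 ± 0.11 in gWT (limma, adjusted p = 6.936e-09). Of the 30 other kinases and adaptors tested, 13 rose and 12 fell in gKO (28.6% and 53.9% of all genes), and 8 rose and 15 fell in gWT (48.4% and 35%). At day 3 the scaffold Blnk averaged 11.8 RPKM in gKO and 37.4 RPKM in gWT, and Fyn averaged 1.69 RPKM in gKO and 6.30 RPKM in gWT. Both fell in gKO against gWT, within a list of 13 higher, 10 lower and 7 not called, beside 32.6% higher and 46.5% lower over all genes.

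Downstream, the calcium and NFAT list lay near the background at day 3. In gKO against gWT 9 of 26 were higher, 13 lower and 4 not called (median -0.16 beside -0.11 over all genes), where 32.6% of all genes were higher and 46.5% lower. The c set had 9 higher, 9 lower and 8 not called, beside 32.8% higher and 44.2% lower over all genes. Nfatc1 rose from day 0 to day 3 by 2.79 ± 0.08 in gKO and 2.31 ± 0.08 in gWT, and Rcan1, a calcineurin regulator and NFAT target, rose by 3.25 ± 0.07 in gKO and 2.92 ± 0.07 in gWT (limma, largest adjusted p = 6.862e-21). Nfatc2 was lower at day 3, at 1.16 RPKM in gKO and 5.45 RPKM in gWT. Trpv4, a calcium channel, averaged 0.215 RPKM in gKO and 11.3 RPKM in gWT on day 0.

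The inhibitory side, receptors with ITIMs and the phosphatases they recruit, had more calls upward than downward at day 3. Of 24 genes 15 were called higher, 7 lower and 2 not called in gKO against gWT (median 0.38 beside -0.11), where 32.6% of all genes were higher and 46.5% lower. For cKO against cWT, 18 were higher, 4 lower and 2 not called (median 0.34 beside -0.07), where 32.8% of all genes were higher and 44.2% lower. Cd33 averaged 19.5 ± 2.6 RPKM in gKO and 1.72 ± 0.54 RPKM in gWT, and Siglece averaged 10.8 ± 0.8 RPKM in gKO and 0.947 ± 0.207 RPKM in gWT (SD, n = 3 each). Both are sialic acid receptors of the SIGLEC family, and both rose in gKO against gWT (limma, adjusted p = 5.544e-17 and 2.859e-21). Dok2, an adaptor that dampens kinase signals, fell by 2.25 (adjusted p = 2.662e-18).

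**Figure D5:**
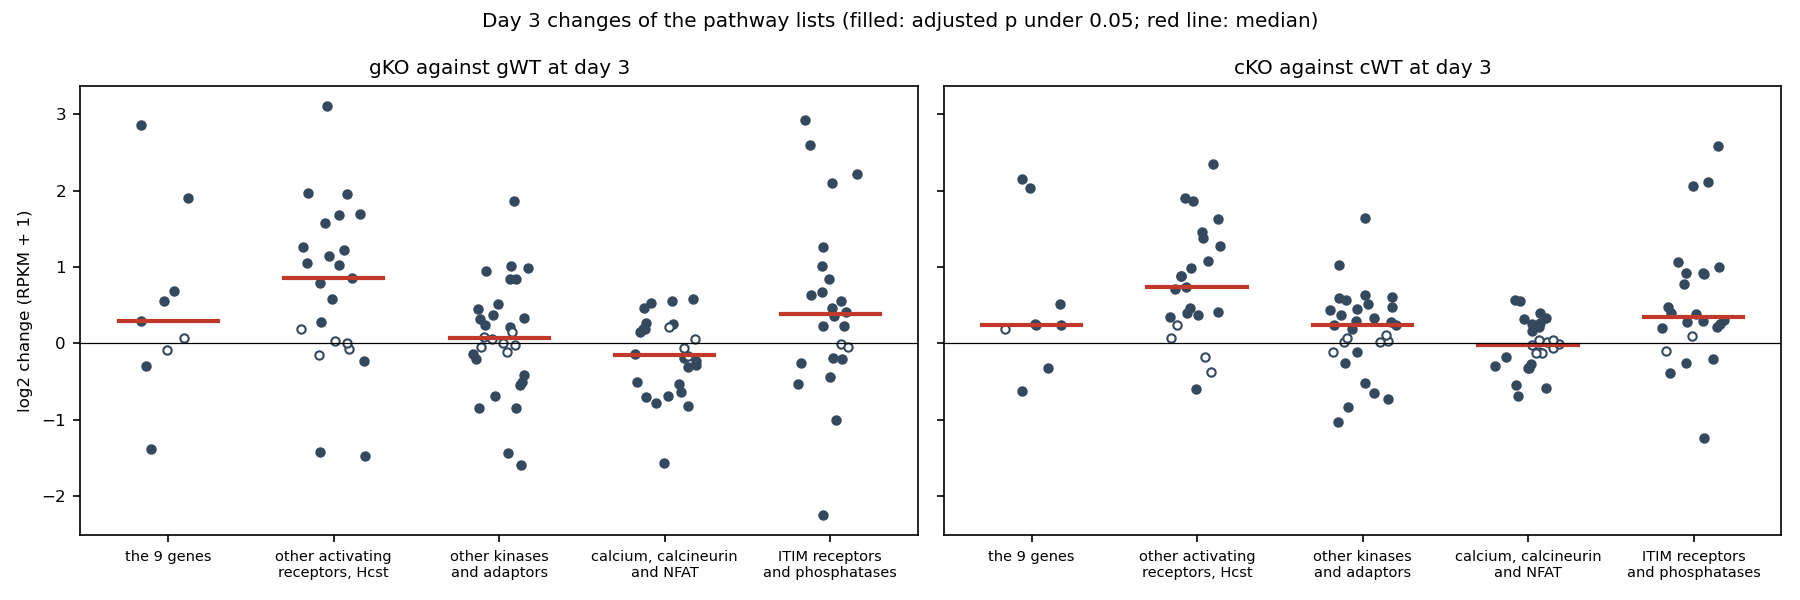
Day 3 change in log2(RPKM + 1) of the 9 genes and of 4 lists of related genes, for gKO against gWT (left) and cKO against cWT (right); each point is a gene, filled where the adjusted p is under 0.05, and red lines are medians. The other activating receptors, listed with Hcst, have medians of 0.86 and 0.74, and the calcium list lies on both sides of 0.

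Markers of other cell types that use these genes ranged widely. The neutrophil sums given above were the highest, in day 0 libraries of both knockout labels. The 10 megakaryocyte and erythroid markers, whose platelet lineage uses Syk, Plcg2 and Fcer1g, summed on day 0 to 94.99 to 124 RPKM in gKO and 1116 to 1157 RPKM in gWT, and to 164 to 173 RPKM in cKO and 1096 to 1503 RPKM in cWT. Later they summed to at most 120.2 RPKM. The 10 dendritic cell markers summed on day 0 to 56.0 to 71.6 RPKM in gKO and 432.7 to 550.5 RPKM in gWT. In the c set they summed on day 0 to 50.4 to 50.6 RPKM in cKO and 102.2 to 106.8 RPKM in cWT. The part of either list in the day 0 results was not tested. The 10 B cell markers, whose cells use Btk, Syk and Plcg2, summed to 8.75 to 71.6 RPKM on day 0, highest in libraries labelled cKO, and to at most 3.62 RPKM later. The 10 mast cell and basophil markers, whose cells use Fcer1g, summed to at most 18.6 RPKM and the 10 NK and T cell markers to at most 20.4 RPKM in any library. At day 3 between 6 and 7 of the 10 B cell markers averaged under 0.1 RPKM in every group.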

How the data were processed

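RNA of 36 libraries was analysed from RPKM values that the authors deposited. The authors mapped with TopHat and computed RPKM in Partek, per the file headers, which also mention a merge of 3 data sets and corrected annotations for cKO and cWT at day 6. The submitters' processing notes name TopHat2 2.1.0 and build mm9. The sources used here give no gene annotation, counting settings or strand. Alignment counts, 34510144 to 92548145 per library, are whole numbers that the authors deposited in a sample sheet. Numbers of reads per gene were not used here, so the counting error of low values is unknown. The authors' ANOVA tables were not used.

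Values were taken as deposited, without scaling, as log2(RPKM + 1), which understates changes of low genes. Genes reaching 1 RPKM in 3 libraries or more (11863 of 24950) entered 1 limma fit (3.58.1, R 4.3.3, trend and robust) of 12 group means. Benjamini-Hochberg adjustment ran over all tested genes, and an adjusted p under 0.05 is called. The fit was tested on simulated data. Members, lists and alternatives were chosen with earlier results of these data known. All 9 genes are named, with up to 3 genes per list and comparison by size of change among called genes whose higher group averaged 5 RPKM or more, and the 3 most correlated genes. Libraries sharing a replicate number deviated together (all 3 correlations over 0.1) in 2 of 14 comparisons, gKO against gWT at day 3 (0.115 to 0.222) and day 3 against day 0 in gWT (0.142 to 0.347). Alternatives were pseudocounts of 0.1 and 0.5, no filter or one of 5 RPKM, quantile scaling, other variance settings, a replicate block, data set as a term, data set s alone, and each library left out. Python 3.11.15 with pandas 2.3.3 and matplotlib 3.10.9 made tables and figures.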

Additional observations from a re-analysis of the deposited data

Results flagged for a closer look

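The change between days differed between knockout and wild-type labels, by the limma test of the difference itself, for 8 genes from day 0 to day 3 in the g set, 6 from day 3 to day 6 in the g set and 9 from day 0 to day 3 in the c set. In gKO against gWT the early difference on the log2(RPKM + 1) scale was 2.80 for Oscar, 1.95 for Siglec15, 1.46 for Tyrobp, 1.002 for Fcer1g, 1.03 for Syk and 1.04 for Tec. It was -0.79 for Plcg2 and -0.39 for Btk, the second of which was -0.12 after quantile scaling. The late difference in gKO against gWT was -3.01 for Oscar, -1.39 for Siglec15, -0.69 for Tyrobp and -0.49 for Syk, and 1.60 for Trem2 and 0.18 for Btk. The Btk value was 0.014 after quantile scaling and no longer called (adjusted p = 0.814).

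In cKO against cWT the early difference was 2.23 for Oscar, 2.097 for Siglec15, 0.80 for Tec, 0.55 for Syk, 0.46 for Tyrobp, 0.39 for Trem2 and 0.38 for Fcer1g. It was -0.22 for Plcg2 and -0.24 for Btk, neither of which was called after quantile scaling (-0.093 and -0.067, adjusted p = 0.435 and 0.256). Those for Trem2 and Plcg2 in the c set lost their call when several single libraries were left out (0.33 to 0.49 for Trem2 and -0.30 to -0.15 for Plcg2). Trem2 and Plcg2 there were also not called without a filter on low values (adjusted p = 0.0661 and 0.0554). Of all genes, 81.8%, 74.8% and 72.9% were called in these contrasts.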

How the results depend on the processing

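Of 2394 member changes recomputed, 2267 kept their direction and their side of the threshold, 76 lost a call, 30 gained one and 21 changed sign, of which 2 were called in either fit. Quantile scaling turned Plcg2 in gKO against gWT at day 3 to 0.091, Fcer1g and Syk in cKO against cWT at day 0 to 0.022 and 0.002472, Btk from day 3 to day 6 in gWT to 0.009817, Fcer1g from day 3 to day 6 in cKO to -0.12 and Plcg2 from day 3 to day 6 in cWT to 0.060. It also turned the late difference between gKO and gWT to -0.01475 for Plcg2 and -0.17 for Tec. Data set as a term turned Oscar and Tyrobp in cKO against cWT at day 0 to 0.051 and 0.010, and Fcer1g from day 3 to day 6 in cKO to -0.077. With single libraries left out, the uncalled changes that crossed 0 ranged from -0.052 to 0.18 for Oscar in gKO against gWT at day 0, from -0.078 to 0.064 for Tyrobp and from -0.019 to 0.13 for Fcer1g at day 6, from -0.065 to 0.001629 for Syk in cKO against cWT at day 0, and from -0.041 to 0.097 for Fcer1g from day 3 to day 6 in cKO. The cause was not tested.

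Counts of called members moved by over 1.5 times in 5 comparisons. In gKO against gWT at day 6 the 2 became 1 with a pseudocount of 0.1, and 1 to 3 with a library left out (1 without gWT day 6 replicate 1). In cKO against cWT at day 0 the 5 became 3 with quantile scaling and 3 with data set as a term. In cKO against cWT at day 6 the 5 became 1 with data set as a term, and 3 to 7 with a library left out (3 without cKO day 6 replicate 1). From day 3 to day 6 the 7 in cKO became 2 with data set as a term, and the 5 in cWT became 8 with quantile scaling. Over all genes, data set as a term gave 5112 calls in place of 8063 in cKO against cWT at day 0, 4075 in place of 6357 at day 6 and 2818 in place of 6768 from day 3 to day 6 in cKO. At day 6 in cKO against cWT, data set s alone gave 4021 and a fit of the compared groups only gave 4165.

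With the replicate block, which pairs libraries by number, Plcg2 from day 0 to day 3 in gWT lost its call (adjusted p = 0.0573), and no other member call changed. RPKM without counts limits what low values can show, as for Oscar and Siglec15 on day 0.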
